A study of Mus musculus with 14 samples.

Results

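The genes described here encode the proteins of the cytosolic ribosome. They were taken as every probe set whose platform annotation gives a single gene symbol of the form Rpl or Rps with a number, or Rplp0, Rplp1, Rplp2 or Rpsa, leaving out the Rps6k kinases and symbols marked as pseudogenes. Of 22626 probe sets tested, 96 met this rule, and they belong to 45 of 12393 genes. Of these, 22 encode proteins of the large subunit, 21 proteins of the small subunit and 2 proteins of the P-stalk. A further 27 ribosomal protein genes, among them Rplp1, Rpl3, Rpl5, Rpl10 and Rpl35a, occur only on probe sets that carry several symbols, so no value is given for them.

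The study measured gene expression on Affymetrix arrays in mouse bone marrow cells (BMCs) sorted as Sca1+/cKit-, that is, carrying the surface antigen Sca1 and lacking the stem cell factor receptor cKit. Matrigel, a basement membrane gel, was borne without tumour by the mice of 4 arrays. A BPLER tumour, called instigating, was borne by the mice of 5 arrays, and a PC3 tumour, called non-instigating and matched in size, by the mice of the other 5. These groups are named Matrigel, Instigator and Non-instigator as in the sample titles, and the comparisons ask whether marrow cells differ with the tumour their host bears. BPLER is a line of human mammary epithelial cells transformed with defined genes, and PC3 is a human prostate carcinoma line, so each tumour group stands for 1 line. The sources used here give no strain, age or immune status of the mice. The labels do not tie each array to an animal of its own, so a p-value reflects only the variation among these arrays, part of which may be technical. Instigator 5 carries a description that names the PC3 tumour, while its title and source name BPLER. It was kept as Instigator.

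A ribosome joins a small subunit, which reads the messenger RNA, to a large subunit, which forms peptide bonds, and each holds ribosomal RNA and a set of ribosomal proteins usually present in single copy. The genes are transcribed together at high levels in growing cells, and most of their messenger RNAs begin with a C followed by pyrimidines, the terminal oligopyrimidine (TOP) motif, through which mTOR signalling sets their translation. In bone marrow the family is known above all from Diamond-Blackfan anaemia, in which loss of a single copy of Rps19 or another ribosomal protein gene impairs red cell formation.

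The start sites of members that the results turn on are shown because the TOP motif is the feature of sequence best known in this family. RefSeq promoter windows of build GRCm38.p6 covered 39 of the 45 genes, with 47 windows. Each line gives the 10 bases before the annotated start and the 15 bases from it, 5′ to 3′ on the gene's strand, and capitals mark the longest run of at least 5 C or T that opens with C, where there is one. The genes were taken by how far they deviated on the array Instigator 4, described further on. The first 4 had the lowest values against the other Instigator arrays among genes with a window, and the last 3 the highest, and every window of each gene is shown.
Rps9, chr7:3704031-3704055, plus strand: cttgtCTCTCTTTgtctcgggcctg
Rps19, chr7:24884582-24884606, plus strand: aatctcgcgagactcgacgcccgac
Rps19, chr7:24884666-24884690, plus strand: cggtgagtgagggctctgggtcgcg
Rps19, chr7:24884903-24884927, plus strand: agcggggtgtggagggCTCTCCCac
Rpl27, chr11:101442235-101442259, plus strand: ctgttcctgtctgctgctcgtgctg
Rplp2, chr7:141447641-141447665, plus strand: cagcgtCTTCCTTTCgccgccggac
Rps6, chr4:86857353-86857377, minus strand: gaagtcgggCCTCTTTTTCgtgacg
Rpl12, chr2:32961702-32961726, plus strand: agcaggatccgtCTTTTCggctttc
Rpl37, chr15:5116603-5116627, plus strand: cctgggcggaagcttatccacagga

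Of these genes, Rplp2 and Rps6 have a C followed by 4 pyrimidines at the annotated start, and the others do not. Rpl27 and Rpl37 have no marked run in the stretch shown, and Rps19 has one in the last of its windows. A C followed by 4 pyrimidines exactly at the annotated start occurred in 8 of the 47 windows (17%), compared with 2.51% of all 32851 windows. A C followed by 5 pyrimidines anywhere from 20 bases before to 30 after the start occurred in 32 windows (68.1%), compared with 34.3% of all windows. The letters CCGGAAG, on either strand, were in 20 windows (42.6%) and in 8.86% of all windows. The letters AAGATGG, on either strand, were in 6 windows (12.8%) and in 6.34% of all windows. These are matches of letters and say nothing of a factor's binding.

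All values below are log2 of the deposited array intensities, and differences are log2 differences between group means. Each gene is represented by its brightest probe set, judged by the mean of the 14 arrays. Differences were tested with limma in a fit over all 22626 probe sets, adjusted by Benjamini-Hochberg, and called at an adjusted p under 0.05. In RNA from sorted cells in bulk, fewer cells of a type and less RNA per cell cannot be told apart.

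Instigator 4 stood apart from the other 13 arrays. The array carries control probe sets at both ends of long messenger RNAs. The level of the 5′ set of beta-actin minus that of its 3′ set was -3.41 on Instigator 4 and -0.81 to -0.51 on the others, and for Gapdh the values were -4.03 and -1.16 to -0.73. The transferrin receptor control was inside its range (-2.58, compared with -2.71 to -1.98). Matrigel 3 also stood apart, with the highest value of the 14 arrays on 35.6% of all probe sets. The sorted identity could not be checked from these values. Kit read between 6.82 and 8.05 over the arrays, where the median of all probe sets was 6.90 to 7.18. The Sca1 gene Ly6a lacks a probe set of its own. The mean level of 9 neutrophil markers ran from 12.19 to 12.61, so markers of other marrow cells were present. Of 12 marker lists, 11 had Instigator 4 inside the range of the other arrays, and the basophil, mast cell and eosinophil list read 9.51 there and 7.94 to 9.36 elsewhere. Results that involve the Instigator group are given with and without Instigator 4. Leaving it out of the fit does not change the differences between Non-instigator and Matrigel, though it changes their tests. The deposited values were normalized between arrays by the authors and were not remade without it.

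No ribosomal protein gene passed the test between mice with an instigating tumour and Matrigel controls. By limma, 0 of 96 member probe sets were called, where 0% of all probe sets were, and the smallest adjusted p over the 45 genes was 0.47. At an unadjusted p under 0.05, 1 gene was higher (Rps29) and 1 lower (Rps4l), while 3.27% of all probe sets were higher and 7% lower. The median difference over the 45 genes was -0.05 (range -0.53 to 0.27), with 32 of 45 (71.1%) below 0, beside a median of -0.02 over all genes and 57.2% of all probe sets below 0. The median turned to 0.02 when each array was centred on its own median. Without Instigator 4 the members' median was -0.01, with 27 of 45 (60%) below 0, beside 57.3% of all probe sets. In that fit 0 member probe sets were called by limma, where 0.00442% of all probe sets were, a single one. No member gene then had an unadjusted p under 0.05, while 2.84% of all probe sets were higher and 5.65% lower, and the smallest adjusted p of a member gene was 0.614.

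Leaving out that array narrowed the intervals. With all arrays, the 95% interval of the difference lay wholly within 0.25 log2 units of 0 for 16 of the 45 genes (35.6%). Without Instigator 4 it did for 34 genes (75.6%), and among all genes for 17.3%. The 11 genes whose interval then still reached beyond that limit were Rpl12, Rpl14, Rpl37, Rpl3l, Rpl6, Rps2, Rps25, Rps27l, Rps29, Rps4l and Rps6. Differences larger than 0.2 in size were seen in 9 genes (20%) with all arrays, where 25.5% of all genes had them, and in 2 (4.44%) without it, where 19% did.

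**Figure D1:**
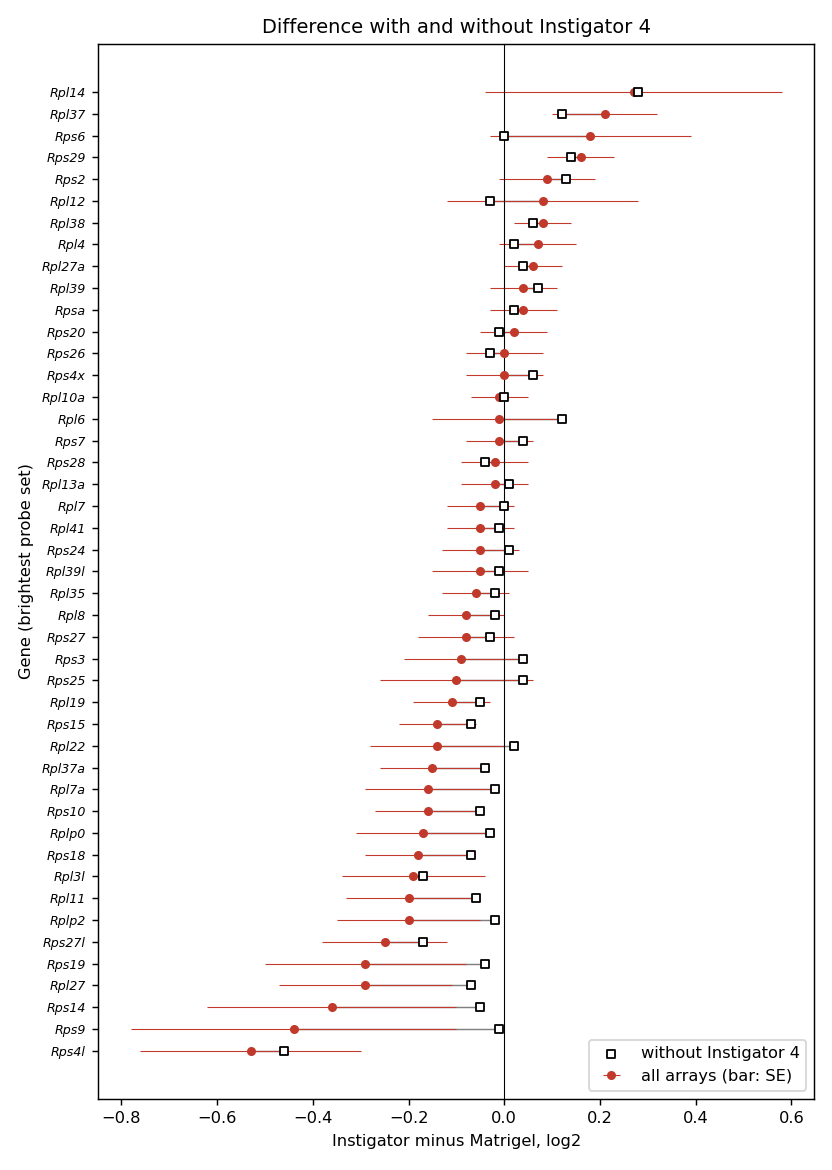
Difference between Instigator and Matrigel for each of the 45 ribosomal protein genes, on the log2 scale. Filled circles are the fit over all arrays with bars of 1 SE, and open squares leave out Instigator 4; the squares lie close to 0 for most genes, as for Rps9 at -0.44 and -0.01, while Rps4l stays at -0.46.

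Both measured proteins of the P-stalk, the arm of the large subunit that recruits elongation factors, showed this pattern. Rplp0, the stalk's base, read 12.71, 12.63, 12.81 and 12.82 on the Matrigel arrays, 12.79, 12.64, 12.71, 11.97 and 12.74 on the Instigator arrays and 12.83, 12.83, 12.70, 12.65 and 12.64 on the Non-instigator arrays. Only Instigator 4 lay outside the range of the rest. The difference between Instigator and Matrigel was -0.17 (SE 0.14, limma adjusted p = 0.643) with it and -0.03 (SE 0.08) without it. Rplp2, an acidic protein of the stalk's tip, read 13.60 to 13.75 on the Matrigel arrays, 13.59, 13.62, 13.74, 12.78 and 13.72 on the Instigator arrays and 13.66 to 13.75 on the Non-instigator arrays. Its difference was -0.20 (SE 0.15, limma adjusted p = 0.632), and -0.02 (SE 0.07) without Instigator 4.

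Among the 22 large subunit genes the median difference was -0.05, and -0.01 without Instigator 4. None had an unadjusted p under 0.05 with or without that array. Rpl27 had the lowest difference of the subunit. It read 12.60, 12.74, 12.90 and 12.70 on the Matrigel arrays, 12.60, 12.60, 12.72, 11.58 and 12.73 on the Instigator arrays, and 12.67 to 12.74 on the Non-instigator arrays. Apart from Instigator 4, the groups overlapped throughout, and the difference went from -0.29 (SE 0.18, limma adjusted p = 0.582) to -0.07 (SE 0.08) without it. Rpl11, which binds the p53 regulator Mdm2 when ribosome assembly fails, read 12.00 on Instigator 4 and 12.66 to 12.89 on the other arrays. Its difference was -0.20 (SE 0.13, limma adjusted p = 0.592), and -0.06 without that array.

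Rpl37 had the smallest p of the large subunit, and it was higher. It read 6.76, 6.73, 6.64 and 6.68 on the Matrigel arrays, 6.79, 6.82, 7.06, 7.25 and 6.64 on the Instigator arrays and 6.60 to 6.78 on the Non-instigator arrays. Instigator 3 and Instigator 4 were above all others, and Instigator 5 was below most of the controls. The difference of 0.21 (SE 0.11, limma adjusted p = 0.516) was 0.12 without Instigator 4. The only probe set of Rpl37, of the x_at kind described further on, was dimmer than those of most members, with a mean of 6.70 on the Matrigel arrays. Rpl4, which lines the exit tunnel for the nascent chain, read 13.61 on Instigator 4 and 13.20 to 13.36 elsewhere, with its lowest value on Matrigel 3. The difference was 0.07 (SE 0.08, limma adjusted p = 0.723) and 0.02 without Instigator 4, and it was -0.02 when Matrigel 3 was left out too. Rpl38, known for its part in translating Hox messenger RNAs, differed by 0.08 (SE 0.06, limma adjusted p = 0.663), and by 0.06 without Instigator 4, with 13.09 to 13.23 on the Matrigel arrays and 13.19 to 13.29 on the Instigator arrays.

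Among the 21 small subunit genes the median difference was -0.08, and -0.01 without Instigator 4. Rps9, a protein of the subunit's body near the messenger RNA entry, read 12.89, 12.96, 12.96 and 13.02 on the Matrigel arrays. It read 12.89, 12.90, 12.99, 10.81 and 13.01 on the Instigator arrays and 12.92 to 13.02 on the Non-instigator arrays. On 13 arrays it stayed within 12.89 to 13.02, and Instigator 4 lay far below. The difference of -0.44 (SE 0.34, limma adjusted p = 0.64) became -0.01 (SE 0.07) without that array. Rps14, whose loss from a single allele is known to cause anaemia in a myelodysplastic syndrome, read 10.60 on Instigator 4 and 12.04 to 12.28 on the other arrays. Its difference was -0.36 (SE 0.26, limma adjusted p = 0.613), and -0.05 without that array.

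Rps4l and Rps29 were the members with an unadjusted p under 0.05. Rps4l, an autosomal paralogue of Rps4x, read 6.04, 6.79, 7.06 and 6.56 on the Matrigel arrays, 5.88, 5.78, 6.89, 5.82 and 6.05 on the Instigator arrays and 6.55, 6.74, 6.85, 6.21 and 6.48 on the Non-instigator arrays. Of the Instigator arrays 3 lay below every array of the other groups, Instigator 5 lay just above Matrigel 1, and Instigator 3 was among the highest of all. The difference from Matrigel was -0.53 (SE 0.23, 95% interval -1.03 to -0.03, limma adjusted p = 0.47). Without Instigator 4 it was -0.46 (95% interval -0.98 to 0.05), and leaving out each array in turn moved it between -0.73 without Instigator 3 and -0.38 without Matrigel 3. Its probe set was dimmer than those of most members, with a mean of 6.61 on the Matrigel arrays.

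Rps29, a small zinc-binding protein of the subunit's head, read 13.05, 12.93, 12.76 and 12.86 on the Matrigel arrays, 13.03, 13.03, 13.04, 13.13 and 13.06 on the Instigator arrays and 13.01, 12.94, 12.95, 13.04 and 13.02 on the Non-instigator arrays. The Instigator values lay close together, and Matrigel 1 fell among them while the other Matrigel arrays were lower. The difference was 0.16 (SE 0.07, 95% interval 0.01 to 0.32, limma adjusted p = 0.477). It was 0.14 without Instigator 4 (95% interval -0.02 to 0.30) and 0.10 without both Instigator 4 and Matrigel 3. Rps18 and Rps15, both of the subunit's head, differed by -0.18 (SE 0.11, limma adjusted p = 0.56) and -0.14 (SE 0.08, limma adjusted p = 0.565), and by -0.07 each without Instigator 4.

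Rps6, the ribosomal protein phosphorylated by S6 kinase downstream of mTOR, read 8.75, 8.45, 8.77 and 8.98 on the Matrigel arrays and 8.87, 8.80, 8.87, 9.64 and 8.42 on the Instigator arrays. Instigator 4 was the highest of the 14 arrays. The difference of 0.18 (SE 0.21, limma adjusted p = 0.744) was 0.00 without it. Rpsa, which is also known as a laminin receptor, differed by 0.04 (SE 0.07, limma adjusted p = 0.845), by 0.02 without Instigator 4 and by -0.02 when Instigator 4 and Matrigel 3 were left out.

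Of 9 genes listed as mutated in Diamond-Blackfan anaemia, 6 were measured on probe sets of their own. Their median difference between Instigator and Matrigel was -0.10, with 5 of 6 below 0 (83.3%), and -0.03 without Instigator 4. With all arrays 71.1% of the 45 members were below 0, and 54.1% of all genes, whose median was -0.02. Rps19, the gene most often mutated in that disease, read 12.72, 12.70, 12.88 and 12.75 on the Matrigel arrays, 12.78, 12.70, 12.71, 11.46 and 12.71 on the Instigator arrays and 12.63 to 12.79 on the Non-instigator arrays. All but Instigator 4 overlapped, and the difference went from -0.29 (SE 0.21, limma adjusted p = 0.618) to -0.04 without it. Rps10 differed by -0.16 (SE 0.11, limma adjusted p = 0.589) and by -0.05 without that array. Rps24, Rps7 and Rps26 differed by -0.05, -0.01 and 0.00, and by 0.01, 0.04 and -0.03 without Instigator 4.

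Paralogues that replace a ribosomal protein in some tissues were measured for Rps27, Rpl3, Rpl39 and Rps4x. Rps27l, a paralogue of Rps27 and a target of p53, read 11.73, 11.76, 12.21 and 12.03 on the Matrigel arrays. It read 11.80, 11.61, 11.89, 11.39 and 11.73 on the Instigator arrays and 11.96, 11.88, 11.66, 11.51 and 11.54 on the Non-instigator arrays. The groups overlapped, with Matrigel 3 and Matrigel 4 above every tumour array. Its difference from Matrigel was -0.25 (SE 0.13, limma adjusted p = 0.534) for Instigator and -0.22 (SE 0.13, limma adjusted p = 0.986) for Non-instigator. The first was -0.17 without Instigator 4. Without Matrigel 3 they were -0.15 and -0.13. Both comparisons share the Matrigel arrays. Rps27 differed by -0.08 and 0.04 in the same comparisons, and its first value was -0.03 without Instigator 4 and 0.05 without Instigator 4 and Matrigel 3.

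Rpl3l, a paralogue of Rpl3 found in striated muscle, read 5.96, 6.24, 6.91 and 6.30 on the Matrigel arrays and 6.01 to 6.30 on all tumour arrays. Its differences of -0.19 for Instigator and -0.24 (SE 0.15, limma adjusted p = 0.986) for Non-instigator rested on Matrigel 3, and were -0.01 and -0.06 without that array. The first was -0.17 without Instigator 4. Rpl39 differed by 0.04 in both comparisons, and by 0.07 for Instigator without Instigator 4. Rpl39l, its paralogue known from testis, read between 4.94 and 5.32 over all arrays and differed by -0.05 for Instigator, -0.01 without Instigator 4, and 0.00 for Non-instigator.

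The comparison of Non-instigator with Matrigel gave no call either. By limma, 0 of 96 member probe sets were called, as were 0% of all probe sets, and the smallest adjusted p over the 45 genes was 0.986. No member gene had an unadjusted p under 0.05, while 0.601% of all probe sets were higher and 1.51% lower at that level. The median difference was -0.01 (range -0.24 to 0.13), with 24 of 45 genes below 0 (53.3%), beside a median of -0.04 over all genes and 63.8% of all probe sets below 0. Instigator 4 enters this comparison through the shared estimate of the spread. Without it 0 member genes had an unadjusted p under 0.05, where 1.15% of all probe sets were higher and 2.55% lower, and 36 of 45 intervals (80%) lay within 0.25 of 0, compared with 23.8% of all genes. Among the genes of smallest p, Rps2, which lies near the messenger RNA entry, differed by 0.13 (SE 0.10), and by 0.01 without Matrigel 3, where it read 11.66 while the other 13 arrays read 11.99 to 12.29. Rps29 differed by 0.09 (SE 0.07), Rpl13a by 0.07, Rpl38 by 0.06, Rps25 by -0.13 (SE 0.16) and Rps28 by -0.05, each at a limma adjusted p of 0.986.

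The comparison of Instigator with Non-instigator sets the tumours against each other at matched size. By limma, 0 of 96 member probe sets were called, as were 0% of all probe sets, and the smallest adjusted p over the 45 genes was 0.813. The median difference was -0.05 (range -0.48 to 0.31), with 31 of 45 genes below 0 (68.9%), beside a median of 0.03 over all genes and 44.2% of all probe sets below 0. Without Instigator 4 the members' median was -0.01 with 25 of 45 below 0 (55.6%), beside 0.02 over all genes and 43.1% of all probe sets below 0. No member gene then had an unadjusted p under 0.05, where 1.98% of all probe sets were higher and 2.41% lower. With all arrays 1 gene was lower at an unadjusted p under 0.05 and none was higher, where 3.36% of all probe sets were lower and 2.24% higher. That gene was Rps4l, at -0.48 (SE 0.22, 95% interval -0.95 to -0.02, limma adjusted p = 0.813), and its value was -0.42 (95% interval -0.91 to 0.07) without Instigator 4.

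The other genes of smallest p in this comparison were mainly those at which Instigator 4 read low or high. Rps6 differed by 0.30 (SE 0.19) and by 0.12 without that array, and Rpl37 by 0.20 (SE 0.10) and 0.11. Rpl27 differed by -0.26 (SE 0.17) and -0.05, Rplp2 by -0.22 (SE 0.14) and -0.05, and Rpl37a by -0.16 (SE 0.10) and -0.05. Rpl27a differed by 0.07 (SE 0.06) and 0.05. Their limma adjusted p ranged from 0.813 to 0.84 with all arrays. Rpl14 differed by 0.31 (SE 0.29, limma adjusted p = 0.852) with and without Instigator 4. It spread widely in every group, from 8.46 to 10.09 on the Non-instigator arrays and from 8.64 to 9.79 on the Matrigel arrays.

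Ribosomal protein genes varied little between arrays other than Instigator 4. The pooled SD within groups, over all 14 arrays, had a median of 0.15 over the 45 genes and 0.19 over all genes. Without Instigator 4 the medians were 0.06 and 0.16. In that set 33 of 45 member genes (73.3%) had an SD under 0.1, compared with 11.9% of all genes. Bright probe sets varied less in general. Among 33 member genes with a mean over 12, 31 (93.9%) had an SD under 0.1, compared with 166 of 310 other probe sets (53.5%) over that level. The 310 were not cleared of sets with several symbols that include a ribosomal protein name, and levels above 12 were not matched. The highest value on any array lay between 13.69 and 13.84, so these genes read near the top of the scale, and how far that narrows their spread was not tested. The dimmer members were the variable ones, and Rpl12, Rpl14 and Rps4l had an SD over 0.3 without Instigator 4.

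**Figure D2:**
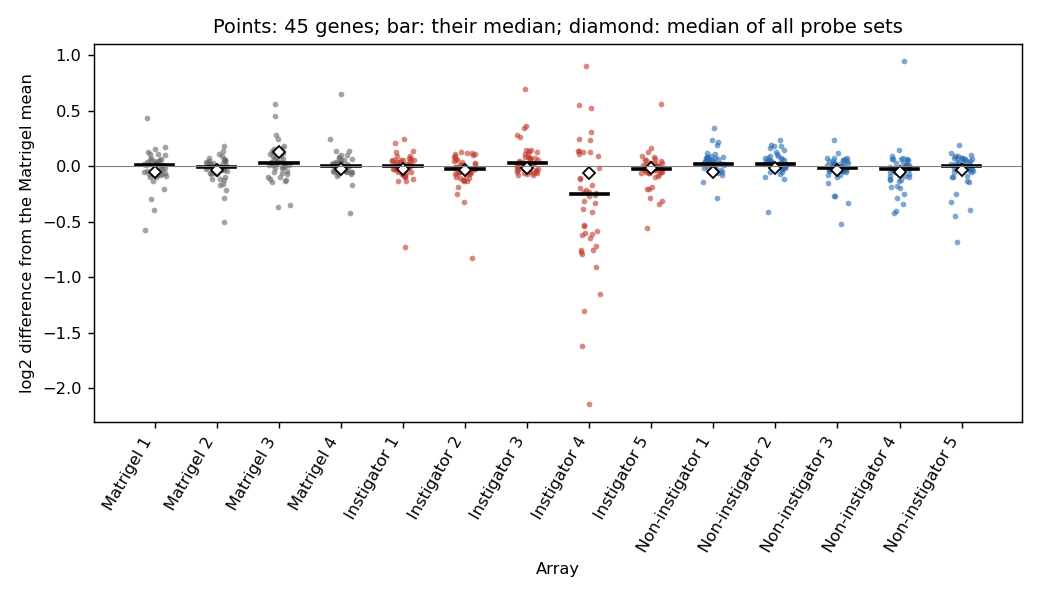
Difference of each ribosomal protein gene from its Matrigel mean (log2) on each of the 14 arrays, coloured by group. Points are the 45 genes, the bar is their median and the diamond the median of all probe sets; the bars lie between -0.03 and 0.03 on 13 arrays and at -0.25 on Instigator 4, where the diamond is at -0.06.

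On Instigator 4 the members read lower as a group and spread apart. The median deviation of the 45 genes from their Matrigel means was -0.25 there and between -0.03 and 0.03 on each other array. All probe sets had a median deviation of -0.06 on Instigator 4 and 0.13 on Matrigel 3. Instigator 4 was the lowest of the 14 arrays for 29 of 45 member genes (64.4%), where it was the lowest for 21.1% of all genes. It was the highest for 9 (20%), where it was so for 21.1% of all genes, and 7 were inside the range of the other arrays. Matrigel 3 was the highest for 12 member genes (26.7%) and the lowest for 5 (11.1%), where it was so for 35.6% and 12% of all probe sets.

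Against the median of the other 4 Instigator arrays, 15 member genes (33.3%) read more than 0.5 lower on Instigator 4, compared with 9.28% of all genes, and 4 (8.89%) read more than 1 lower, compared with 2.08%. The share more than 0.5 lower was close to that in some other lists described below. It was 7 of 17 elongation factors and other TOP genes (41.2%), 11 of 35 ribosome biogenesis genes (31.4%) and 24 of 74 mitochondrial ribosomal protein genes (32.4%). Of 12 genes that control the translation of TOP messenger RNAs, 1 (8.33%) read so low. Among the members the largest deviation was that of Rps9, at -2.14, and the others more than 1 lower were Rps14, Rps19 and Rpl27. Only Rps6, at 0.80, and Rpl12 read more than 0.5 higher, each by its brightest probe set. The other probe set of Rps6, 1453466_at, which was very dim, deviated by -0.30. Genes of both subunits were low, with Instigator 4 the lowest array for 14 of 22 large and 13 of 21 small subunit genes and for both P-stalk genes. Rps26, Rps20, Rpl38, Rpl27a and Rps29 were among those for which it read highest, by small margins. The extreme 5′ to 3′ values of the array's control probe sets stand beside these deviations, and their part in them was not tested.

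**Figure D3:**
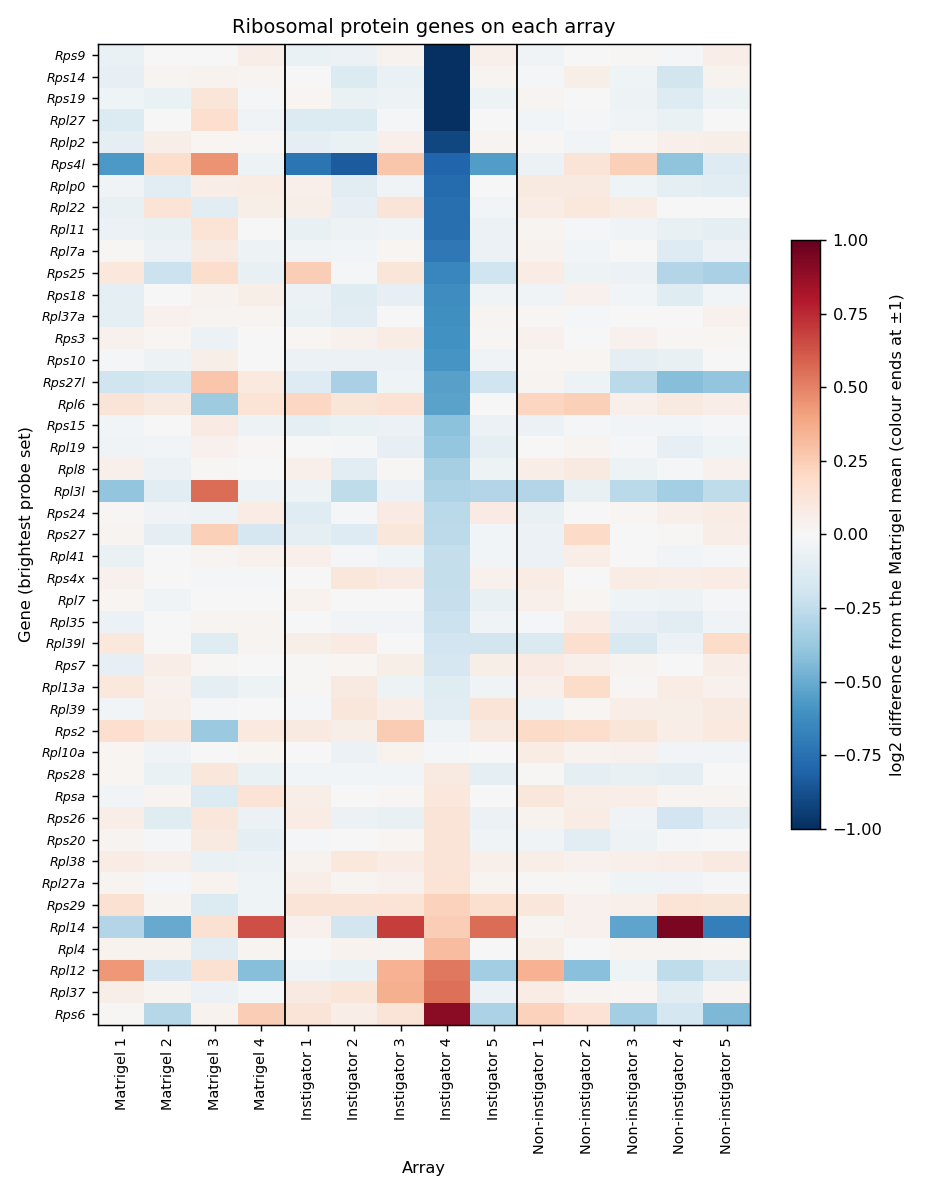
Difference of each ribosomal protein gene from its Matrigel mean (log2, red higher, blue lower, colours ending at 1 log2 unit either way) on each array, with genes sorted by their value on Instigator 4. The Instigator 4 column runs from strong blue for Rps9, Rps14 and Rps19 to red for Rps6, while the other columns are pale except at a few dim genes such as Rpl14 and Rps4l.

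Probe sets of a single gene diverged on Instigator 4. Of the 45 genes, 22 have more than 1 probe set, up to 6. On this array the gap between the highest and the lowest deviation from the other 4 Instigator arrays had a median of 0.57 over these genes. Measured the same way against the other arrays of its group, each of the other 13 arrays had a median gap between 0.06 and 0.28. The gap exceeded 0.5 in 12 genes on Instigator 4 and in 0 to 6 genes on the others, and it exceeded 1 in 6 genes there and in 0 on the others. For single genes the array was not always the widest. For each gene the widest gap among the other 13 arrays was taken, here against the median of those 13. It was at least as wide as the Instigator 4 gap in 11 of the 22 genes, among them Rps24 at 0.89, Rps20 at 0.83 and Rpl41 at 0.81. Instigator 4 had 0.40, 0.64 and 0.26, against the other 4 Instigator arrays, so the baselines differ. For Rps10 the 6 probe sets ran from -1.67 to 0.18. The brightest read 12.51, compared with 13.00 to 13.16 on the other arrays, while another, 1416719_a_at, read 11.08 there and 12.67 to 12.89 elsewhere.

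For Rps9 the deviations ran from -2.14 to -0.31, for Rpl37a from -1.62 to -0.32 and for Rpl27a from 0.10 to 1.50. Those of the 2 Rps6 sets were -0.30 and 0.80. For Rpl13a, which is also known for silencing inflammatory messenger RNAs once released from the ribosome, the 4 probe sets ran from -1.63 to 0.03. Its set 1417608_a_at read 10.66 on Instigator 4 and 12.22 to 12.56 elsewhere, while its brightest, 1455485_x_at, read 13.22 and 13.24 to 13.52. The probe sets of Rpl13a also differed in sign between Instigator and Matrigel, from -0.37 to 0.16, and those of Rps9 between Instigator and Non-instigator, from -0.44 to 0.09. Other genes had probe sets that moved together. Both sets of Rps14 were low, at -1.58 and -1.45, the 3 of Rps27l lay within 0.03 of each other and the 3 of Rps28 within 0.05.

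**Figure D4:**
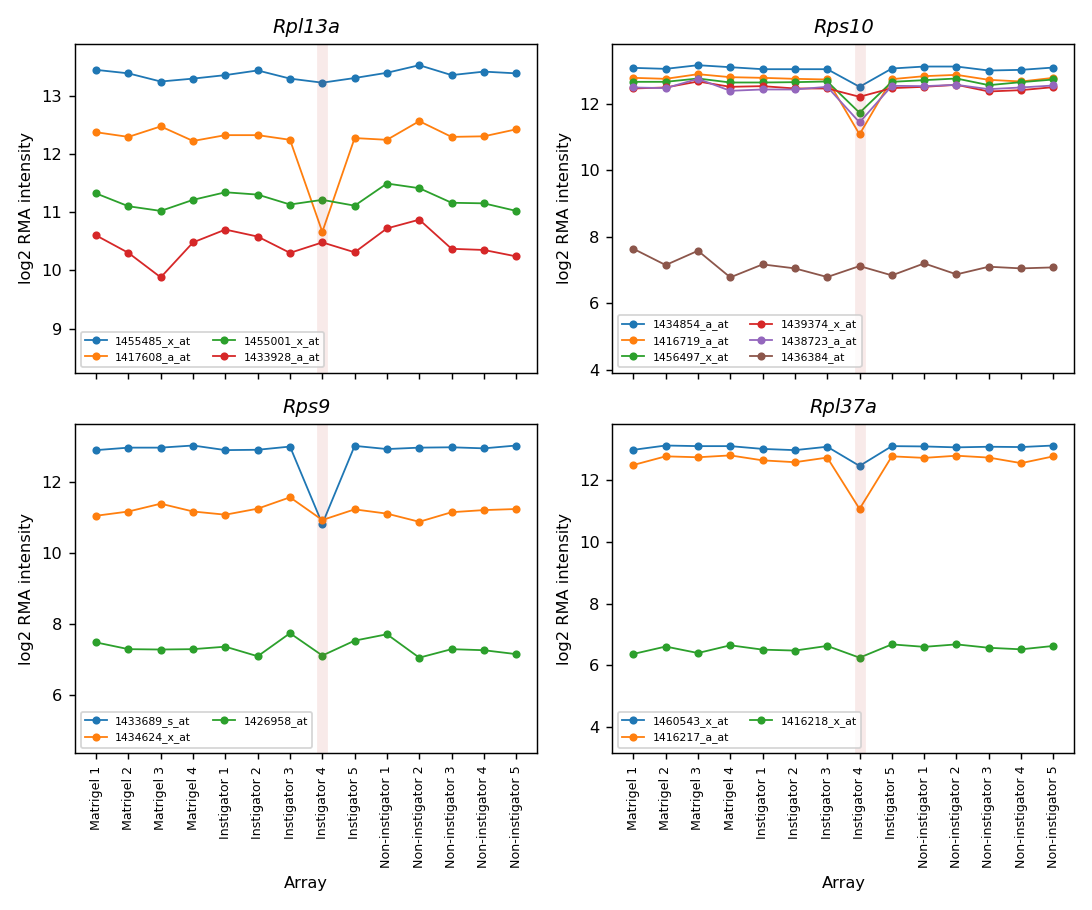
Log2 intensity of every probe set of Rpl13a, Rps10, Rps9 and Rpl37a on the 14 arrays, with 1 line per probe set and Instigator 4 shaded. Some lines drop at Instigator 4 and others of the same gene do not, as in Rps10, whose deviations run from -1.67 to 0.18.

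Kinds of probe set are marked by a suffix. Of the 96, 40 carry the suffix x_at, which marks probes that can bind other transcripts too, 26 carry a_at, which marks sets shared by transcripts of 1 gene, 2 carry s_at and 28 are plain. Instigator 4 was the lowest array for 19 of 26 a_at sets (73.1%), where it was so for 31.4% of all a_at sets on the array. It was the lowest for 24 of 40 x_at sets (60%), beside 16% of all such sets, and for 12 of 28 plain sets (42.9%), beside 23.6%. Differences between the kinds were not tested. A further 102 probe sets carry several symbols, 1 of them a ribosomal protein name. Instigator 4 was the lowest array for 53 of them (52%), beside 24.5% of all probe sets. Processed pseudogenes are common in this family, so x_at and s_at sets in particular may bind related transcripts, and how much they do was not tested.

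Over all 96 probe sets, 2 were higher and 3 lower in Instigator than in Matrigel at an unadjusted p under 0.05, which is 5.21% of them, where 10.3% of all probe sets passed that level. Besides those of Rps29 and Rps4l they were a dim set of Rps24, of Rpl35 and of Rps6. The Rps24 set 1455195_at read 7.50, 7.53, 8.02 and 7.07 on the Matrigel arrays and 7.17, 7.09, 6.63, 7.18 and 7.13 on the Instigator arrays. Its difference was -0.49 (SE 0.16, limma adjusted p = 0.439), and -0.52 without Instigator 4, while the other 5 sets of that gene lay between -0.11 and -0.03. The Rpl35 set 1454833_at differed by -0.59 (SE 0.20, limma adjusted p = 0.439), and by -0.41 without Instigator 4, while the gene's brightest set differed by -0.06. The Rps6 set 1453466_at, which read 3.60 to 4.62 over all arrays, differed by 0.30 (SE 0.13, limma adjusted p = 0.473), and by 0.37 without Instigator 4. Without that array 4 of the 96 sets (4.17%) had an unadjusted p under 0.05, beside 8.49% of all probe sets. They were these dim sets of Rps24, Rpl35 and Rps6, and the Rps4x set 1420303_x_at, at 0.17 (limma adjusted p = 0.556).

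Some other genes of translation also often read lowest on Instigator 4, which was the lowest array for 21.1% of all genes. Of 21 listed elongation factors and other genes whose messenger RNAs carry a TOP motif, 17 were measured and 0 were called by limma in any comparison. Their median difference between Instigator and Matrigel was -0.10, and 0.00 without Instigator 4, which was the lowest of the 14 arrays for 13 of the 17 genes (76.5%). On that array Fau, which encodes a ribosomal protein fused to a ubiquitin-like protein, read 11.70, compared with 12.89 to 13.02 on the others. Eif3h, a subunit of an initiation factor, read 10.64 and 11.92 to 12.16, and Naca, of the nascent chain complex, 12.07 and 12.96 to 13.14. Eif4a2, an initiation helicase, was the gene with an unadjusted p under 0.05, at -0.34 (SE 0.12, limma adjusted p = 0.439) and -0.25 without Instigator 4.

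Genes that build ribosomes had median differences near 0 from Matrigel. Of 37 listed ribosome biogenesis genes 35 were measured, and 0 were called by limma in any comparison. Their median difference between Instigator and Matrigel was 0.01, and 0.04 without Instigator 4, and 0 had an unadjusted p under 0.05 in either. Instigator 4 was the lowest array for 10 of the 35 (28.6%), beside 21.1% of all genes. On it 11 (31.4%) read more than 0.5 and 4 (11.4%) more than 1 below the other Instigator arrays. Between Non-instigator and Matrigel 28 of the 35 (80%) were below 0, with a median of -0.06, beside 61.7% and -0.04 over all genes. Those of smallest p between Instigator and Matrigel were Polr1a, the largest subunit of RNA polymerase I, at 0.18 (SE 0.09, limma adjusted p = 0.514), and Rrs1, an assembly factor of the large subunit, at 0.30 (SE 0.16, limma adjusted p = 0.52). Without Instigator 4 they were at 0.15 and 0.34. Between Instigator and Non-instigator the list's median was 0.04, with 42.9% below 0, beside 0.03 and 41.8% over all genes. Without Instigator 4 it was 0.08, with 31.4% below 0, beside 0.02 and 42.1%. In that fit 1 gene (2.86%), Rrs1 at 0.35, had an unadjusted p under 0.05, where 4.41% of all genes did (limma adjusted p = 0.965).

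Among genes that control the translation of TOP messenger RNAs, 12 of 17 were measured and 0 were called by limma. Their median difference between Instigator and Matrigel was 0.04, and 0.03 without Instigator 4. Instigator 4 was the highest array for 6 of the 12 (50%) and the lowest for 2 (16.7%), where it was each for 21.1% of all genes. Eif4ebp2, a repressor of the cap-binding factor, differed by 0.26 (SE 0.09, limma adjusted p = 0.439), and by 0.25 without that array. Eif4ebp1, its relative, differed by 0.40 between Instigator and Non-instigator (SE 0.17, limma adjusted p = 0.813), and by 0.21 without Instigator 4, where it read 9.74 and 8.41 to 8.92 elsewhere. The 74 measured genes for mitochondrial ribosomal proteins had a median difference of -0.07 between Instigator and Matrigel, and -0.02 without Instigator 4, which was the lowest array for 34 of them (45.9%). Of these 74 genes 0 were called by limma in any comparison, and 2 of them (2.7%) had an unadjusted p under 0.05 in that one, where 8.8% of all genes did. These were Mrpl44 at 0.29 and Mrps31 at -0.30, and without Instigator 4 their values were 0.31 and -0.22.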

How the data were processed

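The deposited table holds linear array intensity values that, per the submitters' processing notes, the authors made with RMA in affy under R 2.11.0. RMA corrects background, normalizes between arrays and summarises probes, so a change shared by most genes would not show. The authors' values were not normalized again, and log2 of the deposited intensity was taken. The array's 64 control probe sets were not tested. All 14 arrays entered 1 fit with group as factor in limma 3.58.1 (R 4.3.3; lmFit, contrasts.fit, eBayes), tested on simulated data. Symbols came from the platform annotation, and all 45 member symbols were found in the RefSeq table. The number of arrays limits the precision. Named genes were fixed ribosomal genes of known role, the 4 of smallest p per direction and comparison, up to 6 with Instigator 4 farthest outside the other arrays, and genes whose probe sets differ in sign by over 0.5. From other lists, up to 3 of smallest p were named. Members and lists were chosen with earlier results of these data known. Other genes and probe sets named here (among them Fau, Eif3h, Naca, Rps20, Rpl41 and the dim sets of Rps24, Rpl35 and Rps6) were chosen after their values were seen. Figures were drawn with matplotlib 3.10.9.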

Additional observations from a re-analysis of the deposited data

Results flagged for a closer look

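Each of 99 groups of 4 or 5 arrays, for 32 named ribosomal protein genes and the median over all 45, was searched for an array whose gap to its nearest neighbour took up an outlying share of the group's range (Dixon's criterion). It found 19, of which 14 were Instigator 4. Chance gives about 1 in 20 groups, but the genes were named in part for their distance on Instigator 4 or for a small p, so the count is a description and is not set against that rate. There the members' median deviation from the Matrigel means was -0.25. The low values on that array were 11.97 for Rplp0, 12.78 for Rplp2, 12.00 for Rpl11, 11.58 for Rpl27 and 12.45 for Rpl37a in the large subunit. In the small subunit they were 12.59 for Rps7, 10.81 for Rps9, 12.51 for Rps10, 10.60 for Rps14, 12.55 for Rps15, 12.64 for Rps18 and 11.46 for Rps19. Rpl4 stood out on the high side there, at 13.61.

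The remaining 5 were scattered. Matrigel 1 stood apart from the other Matrigel arrays for Rpl37a at 12.97 and for Rps14 at 12.14, and Matrigel 3 did for Rpl4 at 13.20 and for Rps2 at 11.66. Instigator 3 read 6.89 for Rps4l, above the other Instigator arrays. The 5′ to 3′ control values of Instigator 4 stand apart too, and their part in these readings was not tested.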

How the results depend on the processing

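No ribosomal protein probe set was called in any comparison under any setting run. Of the medians over the 45 genes, 83 recomputed values moved by less than the pooled SD of 0.0702, and 1 moved further, to 0.02 for Instigator minus Matrigel with arrays centred on their medians. That SD is of the members' median deviation within groups, with Instigator 4 at -0.25 included. It exceeds the size of each median with all arrays (-0.05, -0.01 and -0.05), so the count says little about stability. The shift from -0.05 to -0.01 for Instigator minus Matrigel without Instigator 4 counted as no move. Among all probe sets, 1 was called between Instigator and Matrigel without Instigator 4 and Matrigel 3, and 1 after quantile normalization without Instigator 4, and leaving out each array in turn gave 0 to 1. Between Non-instigator and Matrigel, 1 was called after quantile normalization without Instigator 4. That normalization, and the setting with probe sets of several symbols, were chosen after seeing the data.

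The labels give the groups the same replicate numbers, but same-numbered arrays deviated together weakly or not at all (r from -0.201 to 0.269), so the numbers were not taken as pairs. In a fit with a replicate block the medians were -0.06 for Instigator minus Matrigel, -0.01 for Non-instigator minus Matrigel and -0.05 for Instigator minus Non-instigator.

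Of the values for named genes, 988 kept their direction and side of the threshold and 30 turned their sign, all but that of Rps28 between Instigator and Matrigel. With array weights Rpsa was -0.01, Rps7 0.01, Rps27 0.02 and Rpl4 -0.01. Without Instigator 4 and Matrigel 3, Rpsa was -0.02, Rps19 0.00, Rps7 0.04, Rps27 0.05, Rpl3l 0.02 and Rpl4 -0.02. After quantile normalization Rps26 was -0.01 and Rps7 0.00, and without Instigator 4 as well Rps26 was -0.06, Rps7 0.02, Rps27 0.03 and Rpl39l 0.01. With centred arrays Rps24 was 0.03, Rps7 0.07 and Rpl39l 0.03, and Rps28 was 0.01 between Non-instigator and Matrigel. With the probe sets of a gene averaged, Rps7 was 0.05. Leaving out each array in turn moved Rpsa between -0.01 and 0.08, Rps26 between -0.04 and 0.04, Rps24 between -0.08 and 0.01, Rps7 between -0.03 and 0.04 and Rps27 between -0.13 and 0.00. The cause of these turns was not tested.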
